A study of Mus musculus with 10 samples.

Results

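The genes described here are 32 mouse genes of the amino acid response, made up of 18 aminoacyl-tRNA synthetases and 14 other genes around the transcription factor ATF4. The other genes are the serine and one-carbon enzymes Phgdh, Psat1, Psph, Shmt2 and Mthfd2, the asparagine and proline enzymes Asns, Aldh18a1 and Pycr1, the stress genes Atf4, Chac1, Ddit3 and Trib3, the cystine transporter gene Slc7a11 and the kinase gene Eif2ak4. Members were taken by gene symbol from a fixed list and not by a cut on measured values. The list was chosen with earlier results of these data known. All 32 had a row among the 30295 gene rows, and all 32 were among the 15839 rows that passed the filter on low counts.

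Aminoacyl-tRNA synthetases load each amino acid onto its tRNA. When loading falls short, uncharged tRNA activates the kinase GCN2, the product of Eif2ak4, which phosphorylates the initiation factor eIF2. Most translation then slows while translation of Atf4 mRNA increases, and ATF4 protein raises transcription of genes for amino acid synthesis, amino acid transport, tRNA loading and the stress genes Chac1, Ddit3 and Trib3. Atf4 mRNA is therefore only a partial readout of ATF4 protein, which was not measured.

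RNA was sequenced from cells sorted by flow cytometry from the intestine of 10 C57Bl/6 mice. Hopx cells came from Hopx-CreER::LSL-tdTomato mice, in which the Hopx-driven recombinase switches on a heritable red reporter, so that descendants of a labelled cell stay labelled. Lgr5 cells came from Lgr5-EGFP-IRES-CreER mice, in which the Lgr5 locus drives a green reporter. Mice were under calorie restriction (CR) or fed ad libitum (AL), which gave the groups Hopx CR (n = 2), Hopx AL (n = 2), Lgr5 CR (n = 3) and Lgr5 AL (n = 3). The work was done in 5 isolations, each of 1 CR and 1 AL mouse of the same line, and each library came from a different mouse. The age and sex of the mice, the degree and length of restriction, and the timing of the Hopx label were not stated. In each population the p-values below measure the spread between mice, with 2 or 3 in a group.

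Libraries held 20251504 to 87215729 estimated counts, and the 5 most abundant genes took 3.06% to 17.8% of them, most in Hopx AL replicate 1. Libraries of the same group correlated at 0.937 to 0.965 in log2 CPM (counts scaled to the library size), and those of different groups at 0.926 to 0.961. No 2 libraries held identical values. Transcripts of other crypt and villus cells were present in every library, and every marker of the Paneth, goblet, enterocyte, tuft and enteroendocrine lists was detected. The 7 Paneth cell markers summed to 60800 to 97100 CPM in Hopx CR, 82100 to 203000 in Hopx AL, 47100 to 64700 in Lgr5 CR and 15900 to 64100 in Lgr5 AL. Hopx mRNA stood at 81.9 to 116 CPM in Hopx libraries and 116 to 154 in Lgr5 libraries, so the name of the Hopx population rests on its sort. In such bulk samples fewer cells of a type and less RNA per cell cannot be told apart.

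ATF4 binds DNA with C/EBP partners at a composite element, searched here as TGATGNAA or, on the other strand, TTNCATCA, in the 250 bases before to 50 bases after each RefSeq gene start (GRCm38.p6). The element is shown because it is the sequence that the ATF4 targets of the list may share. Of the 32 members, 24 had a promoter entry, and 10 of these 24 (41.7%) held a match, against 4.51% of 27025 genes. Matches were found for 5 of 10 synthetases (Aars, Gars, Iars, Tars and Yars), 2 of 4 stress genes (Chac1 and Trib3), 2 of 3 asparagine and proline genes (Asns and Pycr1) and Slc7a11, and for 0 of 5 serine and one-carbon genes. A match is a run of letters and not a measured binding site, and a missing match says only that these letters are not in this window. The sequences below read 5′ to 3′ on the strand of the gene, with each match in capitals. They lie, in the order printed, at chr6:7693214-7693243 (minus strand), chr11:120643818-120643877 (minus), chr2:119351023-119351082 (plus), chr2:152344028-152344057 (minus), chr3:50443646-50443705 (minus) and chr8:111033704-111033763 (plus).
Asns: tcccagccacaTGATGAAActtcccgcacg
Pycr1: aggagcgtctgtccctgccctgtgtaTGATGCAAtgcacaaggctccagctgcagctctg
Chac1: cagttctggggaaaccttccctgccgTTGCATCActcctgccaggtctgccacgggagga
Trib3: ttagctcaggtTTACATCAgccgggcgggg
Slc7a11: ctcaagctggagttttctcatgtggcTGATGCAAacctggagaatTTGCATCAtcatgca
Aars: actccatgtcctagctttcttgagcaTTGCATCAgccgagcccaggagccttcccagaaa

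The matches begin 23 bases before the annotated start in Asns, 103 in Pycr1, 193 in Chac1 and 112 in Aars, which held another match 9 bases after its start, and 14 bases after the start in Trib3. Slc7a11 held 2 matches, 66 and 47 bases before its start, on opposite strands. The 10 members with a match had a median log2 fold change of 0.12 in Hopx CR against Hopx AL and -0.09 in Lgr5 CR against Lgr5 AL. The 14 members without one, which include all 5 serine and one-carbon genes, had medians of -0.20 and -0.15 for the same pairs. All tested genes had medians of -0.02 and 0.02. In Hopx cells the members with a match ran from -0.53 (Pycr1) to 0.69 (Trib3). The members with and without a match were not tested against each other.

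Levels between genes were compared on the length-scaled unit TPM, the share of a transcript among all transcripts after correction for length, in which the median of all tested genes was 7.66. Most members were abundant: Aldh18a1, which makes the proline precursor pyrroline-5-carboxylate from glutamate, was the highest with a mean of 195 TPM over the 10 libraries, above 96.3% of tested genes. Vars, the valine synthetase, followed at 123 TPM and Asns, the asparagine synthetase of amino acid metabolism, at 102 TPM. The 18 synthetases ran from 123 TPM for Vars down to 24.7 TPM for Cars, the cysteine synthetase. Among the stress genes, Atf4 averaged 70.3 TPM, Ddit3 (the factor CHOP) 15.4 TPM, Trib3 (a pseudokinase that restrains ATF4 and AKT signalling) 7.35 TPM and Chac1 (an enzyme that degrades glutathione) 3.07 TPM. Slc7a11, the cystine and glutamate antiporter, was the lowest at 0.584 TPM, and Eif2ak4 stood at 3.09 TPM. In this order, 0 of 31 neighbouring genes were clear of each other, since the ranges of their values over the libraries overlapped.

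**Figure D1:**
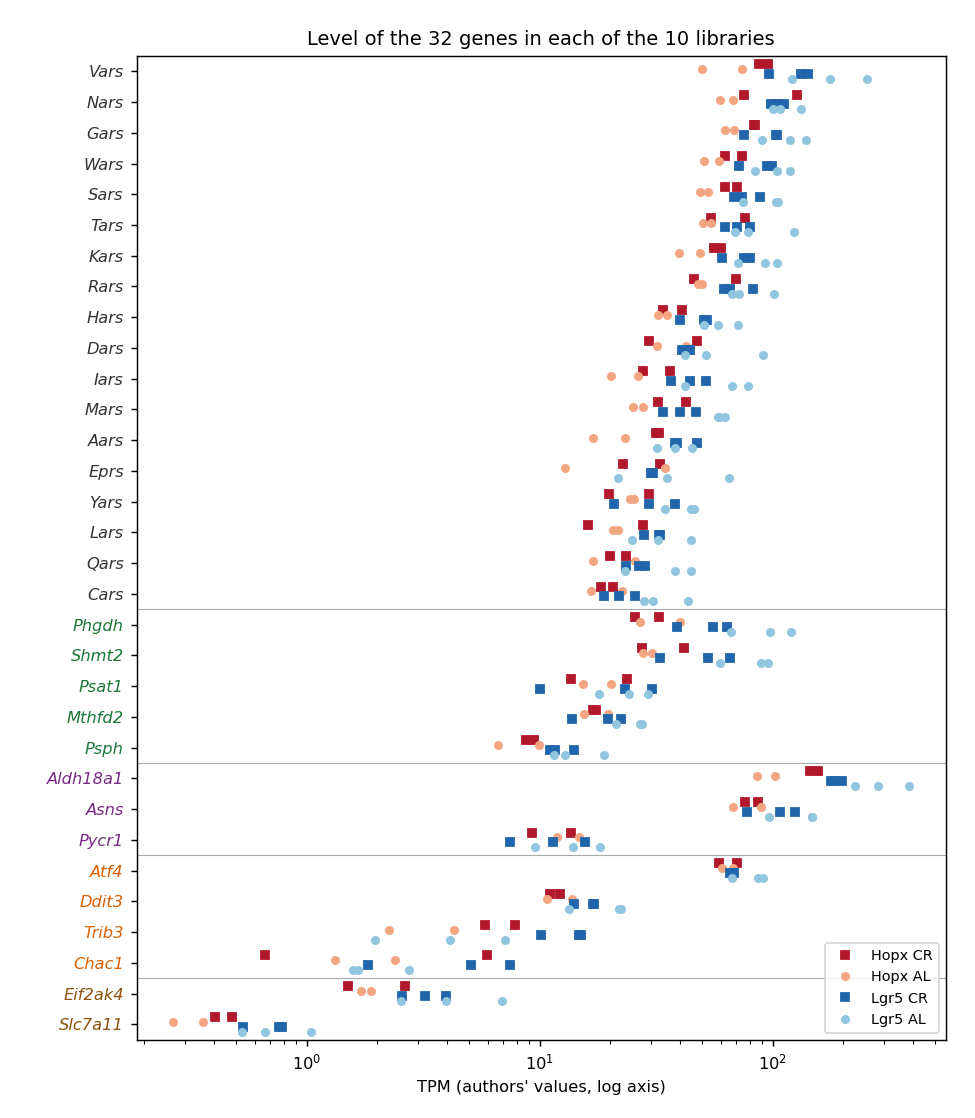
Level of each member in each of the 10 libraries, in the authors' TPM on a log axis, by group and sorted by mean level within the 5 member groups (from the top: synthetases, serine and one-carbon, asparagine and proline, stress, transport and sensing). Synthetases lie close together, with Vars highest at a mean of 123 TPM, while Trib3 and Chac1 are low and spread widely.

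The synthetases were also the steadiest of the groups. The highest of the 10 normalized CPM values of a gene was a median of 1.76 times the lowest for the synthetases, against 2.64 times for all tested genes. Every synthetase averaged 24.7 TPM or more, above the tested median of 7.66 TPM, and these ratios were not compared among genes of like level. Hars, the histidine synthetase, varied least, from 65.5 to 93.6 CPM, a ratio of 1.43. The 4 stress genes had a median ratio of 5.4, and Trib3 reached 11.5, with 25.2 CPM in Lgr5 CR replicate 1 and 2.19 CPM in Lgr5 AL replicate 3. Chac1 had a ratio of 8.73, and both of its extremes were Hopx CR libraries, at 1.09 and 9.5 CPM.

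The first question was whether restriction changed these genes in either population. None of the 32 members passed the threshold (adjusted p under 0.05, edgeR quasi-likelihood test with Benjamini-Hochberg adjustment) in Hopx CR against Hopx AL or in Lgr5 CR against Lgr5 AL. Few genes of any kind did: 2 of 15839 in Hopx cells (0.0126%) and 3 in Lgr5 cells (0.0189%), and 0 in each with the isolation as a block. At an unadjusted p under 0.05 the count was 0 of 32 members in Hopx cells, where 8.52% of genes were under it. In Lgr5 cells it was 3 of 32 (Trib3, Phgdh and Aldh18a1), where 9.78% were. With the isolation as a block the count was 1 of 32 in Hopx cells (Phgdh), where 1575 of 15839 genes were under it. In Lgr5 cells it was then 5 of 32 (Trib3, Phgdh, Aldh18a1, Shmt2 and Vars), where 1830 genes were. DESeq2 called 0 members in Hopx cells, beside 0.884% of all genes, and 1, Aldh18a1, in Lgr5 cells, beside 2.3%. The limma test on log2(TPM + 1) called 0 members in both, beside 0.0253% of genes in Hopx cells and 0.12% in Lgr5 cells. Averaged over both populations edgeR called 0 members and 0.00631% of genes (2 genes with the block), DESeq2 0 members and 4.05% of genes, and 2 of 32 members (Phgdh and Trib3) had an unadjusted p under 0.05, against 14.5% of genes. The CR libraries lay wholly above the AL libraries for 4 of 32 members in Hopx cells, against 21.5% of genes, and for 1 in Lgr5 cells, against 7.41%. They lay wholly below for 3 of 32 in Hopx cells, against 21.1%, and for 3 in Lgr5 cells, against 7.49%. The clearest differences were higher Trib3 and lower Phgdh under restriction, seen in the CR mouse of all 5 isolations, and opposite differences of Aldh18a1 and Vars in the 2 populations. Of 32 members 1 was higher in all 5 isolations, against 8.71% of genes, and 1 was lower in all 5, against 7.68%. Opposite directions were found for 2 of 32 members, against 5.26% of genes.

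In what follows the libraries of a group are given in replicate order, so that the first values of CR and AL of a population come from the same isolation. Eif2ak4, the sensor of uncharged tRNA, stood at 14.8 and 8.11 CPM in Hopx CR and 14.7 and 9.93 in Hopx AL. In Lgr5 cells it was at 14.4, 12 and 17 CPM in CR and 11.5, 17.2 and 20.5 in AL. The groups overlapped in both populations, with log2 fold changes of -0.10 (SE 0.38, adjusted p = 0.951) in Hopx cells and -0.18 (SE 0.31, adjusted p = 0.892) in Lgr5 cells.

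Atf4 mRNA was at 103 and 119 CPM in Hopx CR and 165 and 110 in Hopx AL. It was at 95.4, 95.3 and 90.4 CPM in Lgr5 CR and 127, 90.9 and 80.2 in Lgr5 AL. Both pairs of groups overlapped, and the log2 fold changes were -0.30 (SE 0.26, adjusted p = 0.762) in Hopx cells and -0.08 (SE 0.21, adjusted p = 0.931) in Lgr5 cells. The 95% interval in Lgr5 cells, -0.55 to 0.38, holds shifts of that size either way. Averaged over both populations Atf4 differed by -0.19 (SE 0.16, adjusted p = 0.616) and Eif2ak4 by -0.14 (SE 0.25, adjusted p = 0.827).

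Trib3 was the member with the largest diet difference. It was at 16.5 and 11.8 CPM in Hopx CR and 12.6 and 4.95 in Hopx AL. In Lgr5 cells it was at 25.2, 17.7 and 23.7 CPM in CR and 12, 6.73 and 2.19 in AL. Every Lgr5 CR library lay above every Lgr5 AL library, while the Hopx groups overlapped. The log2 fold change was 1.67 in Lgr5 cells (SE 0.54, 95% interval 0.46 to 2.88, adjusted p = 0.342 by edgeR), a fold of 3.18, and 0.69 in Hopx cells (SE 0.65, adjusted p = 0.791). Averaged over both populations it was 1.18 (SE 0.42, adjusted p = 0.261). Within isolations Trib3 was higher in the CR mouse by 0.39 to 3.41 log2 units in 5 of 5, a pattern that 8.71% of tested genes also had.

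Markers of other cells differed in this comparison too. The 9 enterocyte markers summed to 16900 to 23200 CPM in Lgr5 CR and 4380 to 23500 in Lgr5 AL, and the 6 tuft cell markers to 53 to 72.9 CPM in Lgr5 CR and 141 to 315 in Lgr5 AL. The enterocyte sum was 23200 CPM in the CR mouse and 23500 in the AL mouse of isolation 1, 16900 and 7000 in those of isolation 2, and 18500 and 4380 in those of isolation 3. Trib3 differed by 1.07, 1.39 and 3.41 log2 units in the same isolations. The part of the enterocyte and tuft cell markers in the Trib3 difference was not tested.

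The other stress genes were mixed over the isolations. Chac1 was at 1.09 and 9.5 CPM in Hopx CR and 5.47 and 2.24 in Hopx AL, and at 2.41, 6.94 and 9.46 CPM in Lgr5 CR and 3.6, 2.13 and 1.38 in Lgr5 AL. Its diet difference ran from -2.29 to 2.74 log2 units over the isolations, higher in the CR mouse in 3 of 5, and its log2 fold change in Lgr5 cells was 1.40 (SE 0.78, 95% interval -0.34 to 3.15, adjusted p = 0.593). Ddit3 was at 9.12 and 8.07 CPM in Hopx CR and 11.2 and 10.7 in Hopx AL, and at 10.3, 8.76 and 9.74 CPM in Lgr5 CR and 13.2, 7.82 and 8.9 in Lgr5 AL. Both Hopx CR libraries lay below both Hopx AL libraries, and the Lgr5 groups overlapped. Its log2 fold changes were -0.35 (SE 0.30, adjusted p = 0.766) in Hopx cells and -0.05 (SE 0.25, adjusted p = 0.97) in Lgr5 cells. The median of the 4 stress genes was 0.07 in Hopx cells and 0.67 in Lgr5 cells, where all tested genes had medians of -0.02 and 0.02. The Lgr5 value is the middle of 2 positive genes, Trib3 (1.67) and Chac1 (1.40), and 2 negative ones, Atf4 (-0.08) and Ddit3 (-0.05). With 1 library left out it ran from 0.46 to 1.02. The Hopx value was -0.10 on TPM after TMM scaling (trimmed mean of M-values), 0.64 without Hopx AL replicate 1 and -0.34 without Hopx CR replicate 2.

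**Figure D2:**
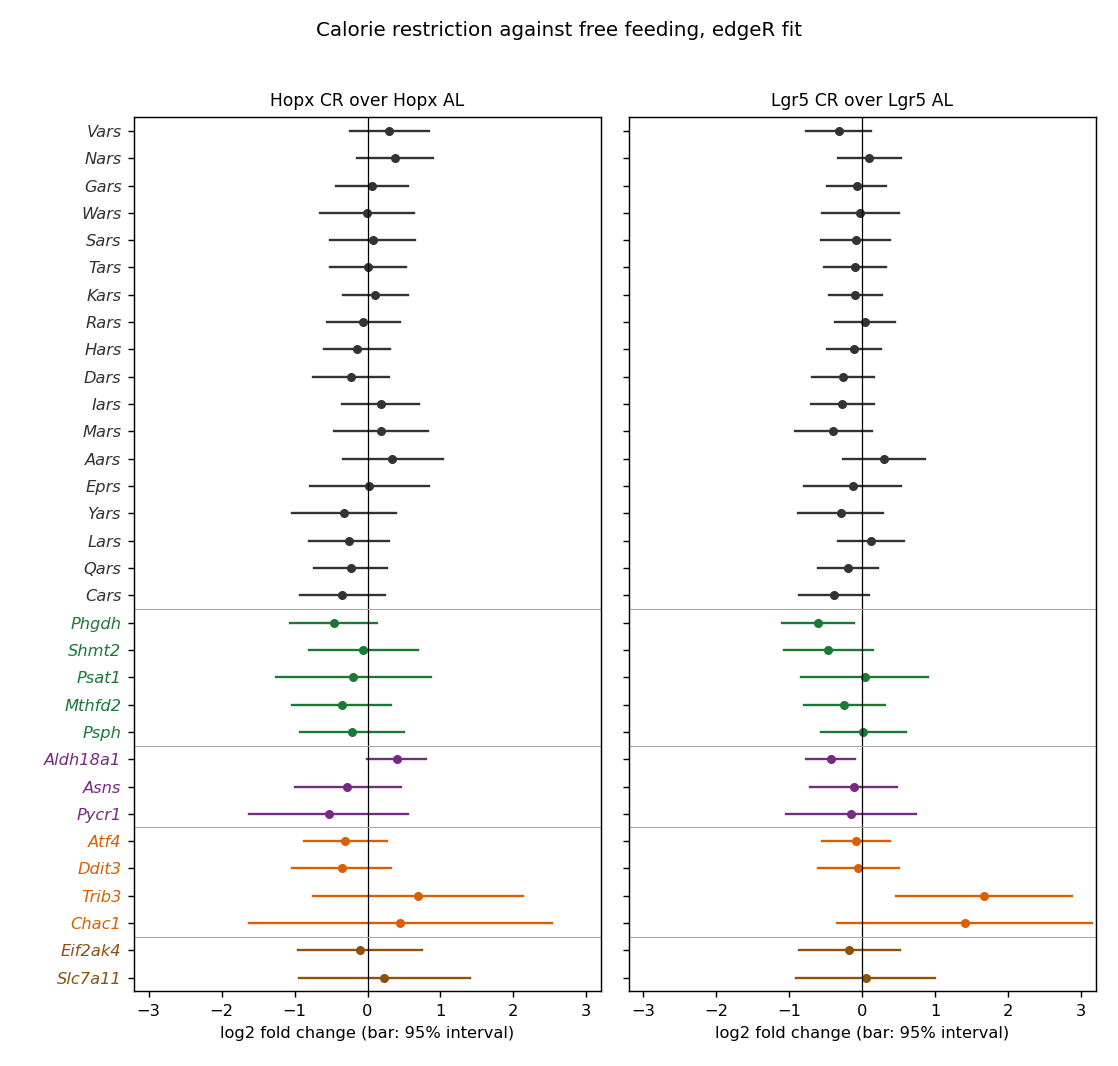
Diet comparison of the 32 members, Hopx CR over Hopx AL at left and Lgr5 CR over Lgr5 AL at right, as log2 fold changes with 95% intervals from the edgeR fit. Most synthetases lie within 0.4 of 0, the intervals of Trib3, Phgdh and Aldh18a1 at right exclude 0, and no member passed the adjusted threshold.

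Among the asparagine and proline genes, Asns was at 148 and 126 CPM in Hopx CR and 211 and 120 in Hopx AL, and at 105, 176 and 141 CPM in Lgr5 CR and 131, 195 and 133 in Lgr5 AL. The groups overlapped, with log2 fold changes of -0.28 (SE 0.33, adjusted p = 0.838) in Hopx cells and -0.12 (SE 0.27, adjusted p = 0.919) in Lgr5 cells, and of -0.20 averaged over both (SE 0.21, adjusted p = 0.695). Aldh18a1 was at 414 and 434 CPM in Hopx CR and 340 and 304 in Hopx AL, so both CR libraries lay above both AL libraries. In Lgr5 cells it was at 423, 426 and 434 CPM in CR and 516, 632 and 587 in AL, with every CR library below every AL library. Its log2 fold changes were 0.40 (SE 0.18, adjusted p = 0.591) in Hopx cells and -0.44 (SE 0.15, adjusted p = 0.377) in Lgr5 cells. DESeq2 put the Lgr5 difference past the threshold (-0.47, adjusted p = 0.0225), and over all 18 alternatives that adjusted p ran from 0.0225 to 0.791. In Hopx cells other markers differed as well: the enterocyte markers summed to 15400 to 18500 CPM in Hopx CR and 6540 to 9670 in Hopx AL, and the 8 immune markers to 42.9 to 57.1 CPM in Hopx CR and 137 to 154 in Hopx AL, and their part in the difference was not tested. Pycr1, which turns pyrroline-5-carboxylate into proline, had log2 fold changes of -0.53 (SE 0.49, adjusted p = 0.786) in Hopx cells and -0.15 (SE 0.40, adjusted p = 0.938) in Lgr5 cells.

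Of the serine and one-carbon genes, Phgdh, the first enzyme of serine synthesis, was the one with the steadiest difference. It was at 63.1 and 48.5 CPM in Hopx CR and 73.2 and 81 in Hopx AL, and at 60.3, 103 and 82.4 CPM in Lgr5 CR and 103, 147 and 124 in Lgr5 AL. The CR libraries lay below the AL libraries in both populations, although in Lgr5 cells the highest CR and the lowest AL library round to the same value. The log2 fold changes were -0.47 (SE 0.27, adjusted p = 0.651) in Hopx cells and -0.61 (SE 0.22, adjusted p = 0.404) in Lgr5 cells. Averaged over both populations the value was -0.54 (SE 0.17, adjusted p = 0.229), a fold of 0.689. Phgdh was lower in the CR mouse of 5 of 5 isolations, by -0.78 to -0.21 log2 units, and 7.68% of tested genes were lower in all 5.

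Shmt2, which splits serine in mitochondria to supply one-carbon units, was at 66.7 and 98 CPM in Hopx CR and 94.4 and 76.9 in Hopx AL, and at 63.8, 133 and 98.9 CPM in Lgr5 CR and 116, 169 and 124 in Lgr5 AL. It was lower in the CR mouse of all 3 Lgr5 isolations, with a log2 fold change of -0.47 there (SE 0.28, adjusted p = 0.612), and its isolations pointed in opposite directions in Hopx cells (-0.06, SE 0.34, adjusted p = 0.972). Psat1 and Psph, which act after Phgdh in the same pathway, and Mthfd2, which acts after Shmt2, were mixed in both populations. The median of the 5 genes was -0.21 in Hopx cells, which was 0.03 on unscaled TPM and 0.09 without Hopx AL replicate 1, and -0.25 in Lgr5 cells. On that scale all genes shifted by 0.15 in Hopx cells, so the 5 genes lay at -0.12 relative to all genes.

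Slc7a11 was at 1.96 and 1.59 CPM in Hopx CR and 1.52 and 1.51 in Hopx AL, and at 2.57, 1.83 and 2.38 CPM in Lgr5 CR and 1.75, 3.33 and 1.46 in Lgr5 AL. The Hopx CR libraries lay just above the Hopx AL libraries, and the errors of its log2 fold changes were wide at these low levels: 0.23 (SE 0.52) in Hopx cells and 0.05 (SE 0.43) in Lgr5 cells.

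In the edgeR fit without the isolation as a block, no synthetase had an unadjusted p under 0.05 in either population. With the block Vars was under it in Lgr5 cells (log2 fold change -0.33, SE 0.13), and no synthetase was in Hopx cells. The median log2 fold change of the 18 synthetases in Hopx cells was 0.01, which was 0.33 on unscaled TPM (0.18 relative to all genes). It was 0.20 if Hopx AL replicate 1 was left out and 0.14 if the CR mouse of the same isolation was, and it was -0.16 if Hopx AL replicate 2 was left out and -0.17 if its CR partner was. Of the 18 genes 10 were positive there, against 48.6% of all tested genes. In Lgr5 cells the median was -0.11, which was -0.30 on unscaled TPM (-0.19 relative to all genes). There 14 of 18 were negative, against 48.2% of all tested genes. Without Lgr5 AL replicate 2 the Lgr5 median was -0.03, without Lgr5 CR replicate 1 it was -0.04, and without Lgr5 CR replicate 2 it was -0.18. Single genes ranged from -0.34 to 0.37 in Hopx cells and from -0.40 to 0.30 in Lgr5 cells. The 95% intervals over all 18 genes reached from -1.04 to 1.03 in Hopx cells and from -0.92 to 0.86 in Lgr5 cells. Cars was at 43.8 and 47.5 CPM in Hopx CR and 74.9 and 40.8 in Hopx AL, and at 36.1, 43.5 and 46.9 CPM in Lgr5 CR and 53.7, 57 and 54.7 in Lgr5 AL. All Lgr5 CR libraries lay below all Lgr5 AL libraries (log2 fold change -0.39, SE 0.21, adjusted p = 0.587), and the Hopx groups overlapped (-0.34, SE 0.26, adjusted p = 0.736). Averaged over both populations Cars differed by -0.37 (SE 0.17, adjusted p = 0.358). Nars, the asparagine synthetase of tRNA loading, was at 213 and 347 CPM in Hopx CR and 233 and 199 in Hopx AL, and at 234, 231 and 243 CPM in Lgr5 CR and 227, 237 and 198 in Lgr5 AL. Its log2 fold change of 0.37 in Hopx cells (SE 0.24, adjusted p = 0.681) came from isolation 5 (0.80), while isolation 4 gave -0.13, and the averaged value was 0.24 (SE 0.15, adjusted p = 0.494).

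Aars, which loads alanine, was at 180 and 179 CPM in Hopx CR and 183 and 100 in Hopx AL, and at 177, 181 and 207 CPM in Lgr5 CR and 145, 199 and 115 in Lgr5 AL. It had the largest positive value among the synthetases averaged over both populations (0.32, SE 0.20, adjusted p = 0.481), and its groups overlapped. Dars, which loads aspartate, was at 66.4 and 103 CPM in Hopx CR and 99.4 and 99.3 in Hopx AL, and at 77.6, 76.5 and 76.6 CPM in Lgr5 CR and 76.3, 90.7 and 109 in Lgr5 AL. The averaged difference was -0.24 (SE 0.15, adjusted p = 0.481). No synthetase was higher in the CR mouse of all 5 isolations, and none was lower in all 5.

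Set against the other groups library by library, the mean log2 CPM of the synthetases exceeded that of the serine and one-carbon genes by 1.33 and 1.79 in Hopx CR and 1.24 and 1.36 in Hopx AL, and by 1.76, 1.14 and 1.41 in Lgr5 CR and 1.27, 1.18 and 1.33 in Lgr5 AL. It exceeded that of the stress genes by 3.2 and 2.86 in Hopx CR and 2.77 and 3.31 in Hopx AL, and by 2.71, 2.8 and 2.52 in Lgr5 CR and 2.8, 3.83 and 4.12 in Lgr5 AL. The ranges of CR and AL overlapped for both differences in Hopx cells and for the serine genes in Lgr5 cells, and for the stress genes in Lgr5 cells they met at 2.8.

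**Figure D3:**
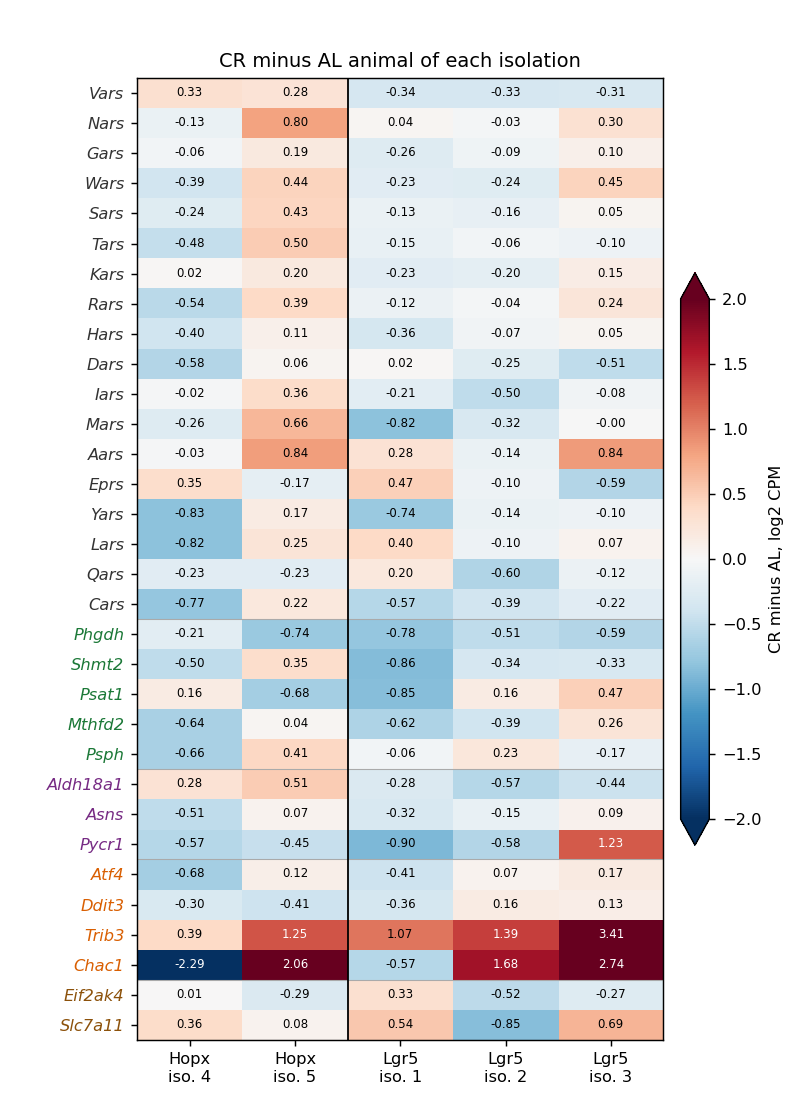
CR minus AL difference in log2 CPM within each of the 5 isolations (columns, Hopx isolations first) for each member (rows), red where the CR mouse was higher and blue where it was lower, with the value printed in each cell. Trib3 is red and Phgdh blue in all 5 columns, and Vars and Aldh18a1 are red in both Hopx columns and blue in all 3 Lgr5 columns.

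Counted by isolation, 1 of 32 members was higher in the CR mouse of all 3 Lgr5 isolations, against 18.1% of genes, and 9 of 32 were lower in all 3, against 17.3%. Of these 9, 6 were synthetases. In both Hopx isolations 5 of 32 were higher, against 27.9% of genes, and 4 of 32 lower, against 29.2%. The median synthetase difference was -0.25 in isolation 4 and 0.26 in isolation 5 of Hopx cells, and -0.18, -0.15 and 0.02 in the 3 Lgr5 isolations. The group median had both signs within each population, but the 0.02 of isolation 3 lay below the median of all genes in that isolation, 0.04.

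The next question was whether the diet effect differed between the populations. No member passed the test of this difference (edgeR, adjusted p = 1 for all 32), which called 1 gene of 15839 (0.00631%), or 0 with the isolation as a block. At an unadjusted p under 0.05 and with the isolation as a block, 2 members, Vars and Aldh18a1, stood beside 764 of 15839 genes. Without the block 1 member, Aldh18a1, stood beside 4.72% of genes. Its diet effect in Hopx cells exceeded that in Lgr5 cells by 0.83 log2 units (SE 0.23, 95% interval 0.31 to 1.36, adjusted p = 1). DESeq2 called this member (0.87, adjusted p = 0.0245) among 0.221% of all genes, and over all 17 alternatives its adjusted p ran from 0.0245 to 1.

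Vars was next by p. It was at 340 and 363 CPM in Hopx CR and 271 and 299 in Hopx AL, and at 300, 428 and 426 CPM in Lgr5 CR and 379, 537 and 530 in Lgr5 AL. It was higher in the CR mouse by 0.33 and 0.28 log2 units in the Hopx isolations and lower by -0.34, -0.33 and -0.31 in the Lgr5 isolations. Its log2 fold change in Hopx cells was 0.30 (SE 0.24, adjusted p = 0.753), and the difference of the diet effects was 0.63 (SE 0.32, adjusted p = 1). Opposite differences of this kind, with all isolations of a population on the same side, were found for 2 of 32 members and 5.26% of tested genes. Mars, which loads methionine, followed at 0.58 (SE 0.38) and Iars, which loads isoleucine, at 0.46 (SE 0.31), both with adjusted p = 1. Mars was at 96.5 and 124 CPM in Hopx CR and 116 and 78.3 in Hopx AL, and at 80.9, 117 and 92.6 CPM in Lgr5 CR and 143, 146 and 92.8 in Lgr5 AL, and the diets overlapped in both populations. Mars overlaps Ddit3 on the opposite strand, and the libraries do not mark the strand, so reads of the overlap cannot be assigned between them. The difference of the diet effects was negative for Trib3 (-0.98, SE 0.84), which was higher under restriction by more in Lgr5 cells, and for Lars, which loads leucine (-0.37, SE 0.32). It was -0.22 for Atf4 (SE 0.33), -0.16 for Asns (SE 0.42) and 0.07 for Eif2ak4 (SE 0.49).

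**Figure D4:**
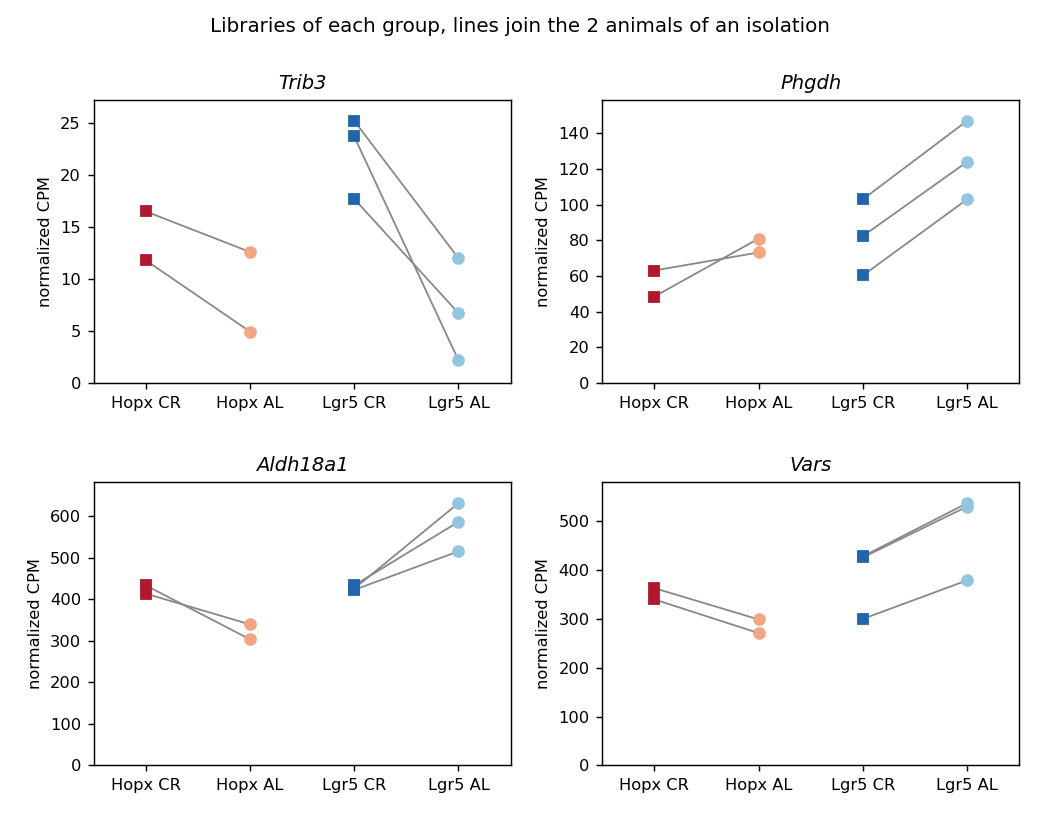
Normalized CPM of Trib3, Phgdh, Aldh18a1 and Vars in each library, by group, with a line joining the CR and AL mouse of an isolation and axes starting at 0. All lines of Trib3 go down and all lines of Phgdh go up towards AL, while the lines of Aldh18a1 and Vars go down in Hopx cells and up in Lgr5 cells.

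The last question was how the populations differed. No member passed in Hopx CR against Lgr5 CR, in Hopx AL against Lgr5 AL or averaged over both diets by edgeR, which called 3 (0.0189%), 3 (0.0189%) and 211 (1.33%) genes. At an unadjusted p under 0.05 the counts were 1, 4 and 4 of 32 members, against 6.3%, 17.7% and 19.5% of genes. All of these members were lower in Hopx cells, as were 2.99%, 8.42% and 9.03% of genes. DESeq2 called 0, 2 (Aldh18a1 and Vars) and 2 (Aldh18a1 and Phgdh) members, beside 1.01%, 7.3% and 8.84% of genes. The 4 members under AL were Aldh18a1, Vars, Iars and Phgdh. All Hopx AL libraries lay below all Lgr5 AL libraries for 6 of 32 members, these 4 with Kars and Shmt2, against 15.8% of genes, and above them for 0, against 18.8%. Under CR 1 member was wholly higher in Hopx cells, against 11.7% of genes, and 1 wholly lower, against 11.4%.

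Under AL, Aldh18a1 was lower in Hopx cells by -0.84 log2 units (SE 0.17, 95% interval -1.22 to -0.47, adjusted p = 0.0707), a fold of 0.557. Under CR the difference was -0.01 (SE 0.17, 95% interval -0.38 to 0.36). Without Lgr5 AL replicate 1 the AL difference was -0.92 and passed the edgeR threshold (adjusted p = 0.049), and over all 16 alternatives its adjusted p ran from 6.03e-07 to 0.375. Vars was lower in Hopx AL than in Lgr5 AL by -0.76 (SE 0.23, adjusted p = 0.142), and under CR the difference was -0.13 (SE 0.22).

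Iars was at 113 and 143 CPM in Hopx CR and 115 and 111 in Hopx AL, and at 119, 149 and 161 CPM in Lgr5 CR and 138, 212 and 170 in Lgr5 AL. Under AL all Hopx libraries lay below all Lgr5 libraries (-0.62, SE 0.22, adjusted p = 0.191), and under CR they overlapped (-0.16, SE 0.22). Phgdh was lower in Hopx cells in both diets, by -0.55 under CR (SE 0.25, adjusted p = 0.793) and -0.69 under AL (SE 0.25, adjusted p = 0.192). Shmt2 differed by -0.67 under AL (SE 0.31, adjusted p = 0.297) and -0.26 under CR (SE 0.31, adjusted p = 0.965). Lars was at 69.3 and 115 CPM in Hopx CR and 112, 99.7 and 106 in Lgr5 CR, with a difference of -0.21 (SE 0.23, adjusted p = 0.963), and at 123 and 96.2 CPM in Hopx AL and 85.4, 107 and 102 in Lgr5 AL.

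Averaged over both diets, the differences between Hopx and Lgr5 cells were -0.43 for Aldh18a1 (SE 0.12, adjusted p = 0.0997), -0.62 for Phgdh (SE 0.17, adjusted p = 0.104), -0.44 for Vars (SE 0.16, adjusted p = 0.167), -0.39 for Iars (SE 0.15, adjusted p = 0.206) and -0.46 for Shmt2 (SE 0.22, adjusted p = 0.281). For Aldh18a1, Vars and Iars the averaged value joins a larger difference under AL with a smaller one under CR.

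Atf4 mRNA pointed the other way and was higher in Hopx cells by 0.36 averaged over both diets (SE 0.16, adjusted p = 0.266). Under CR both Hopx libraries were above all Lgr5 libraries (0.25, SE 0.23, adjusted p = 0.947), and under AL the groups overlapped (0.47, SE 0.23, adjusted p = 0.323). Under CR Trib3 was the reverse, with both Hopx CR libraries below all Lgr5 CR libraries (-0.65, SE 0.60, adjusted p = 0.942). Under AL its groups overlapped, at 12.6 and 4.95 CPM in Hopx cells and 12, 6.73 and 2.19 in Lgr5 cells. There all 4 stress genes, Trib3 and Atf4 among them, had positive log2 fold changes of Hopx over Lgr5 cells. Nars differed by 0.25 under CR (SE 0.21, adjusted p = 0.927). Asns did not differ beyond its error averaged over both diets (0.04, SE 0.21, 95% interval -0.43 to 0.50), with -0.04 under CR (SE 0.30) and 0.11 under AL (SE 0.30). Eif2ak4 had an averaged difference of -0.38 (SE 0.25, adjusted p = 0.445), with -0.34 under CR (SE 0.35) and -0.41 under AL (SE 0.35). The synthetases as a group had a median of 0.04 under CR, which was -0.24 on unscaled TPM (-0.05 relative to all genes). Under AL the median was -0.02, which was -0.80 on unscaled TPM (-0.31 relative to all genes). The AL median was 0.01 with no filter on low counts, -0.24 if replicate 1 of Hopx AL was left out and 0.13 if replicate 2 was.

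**Figure D5:**
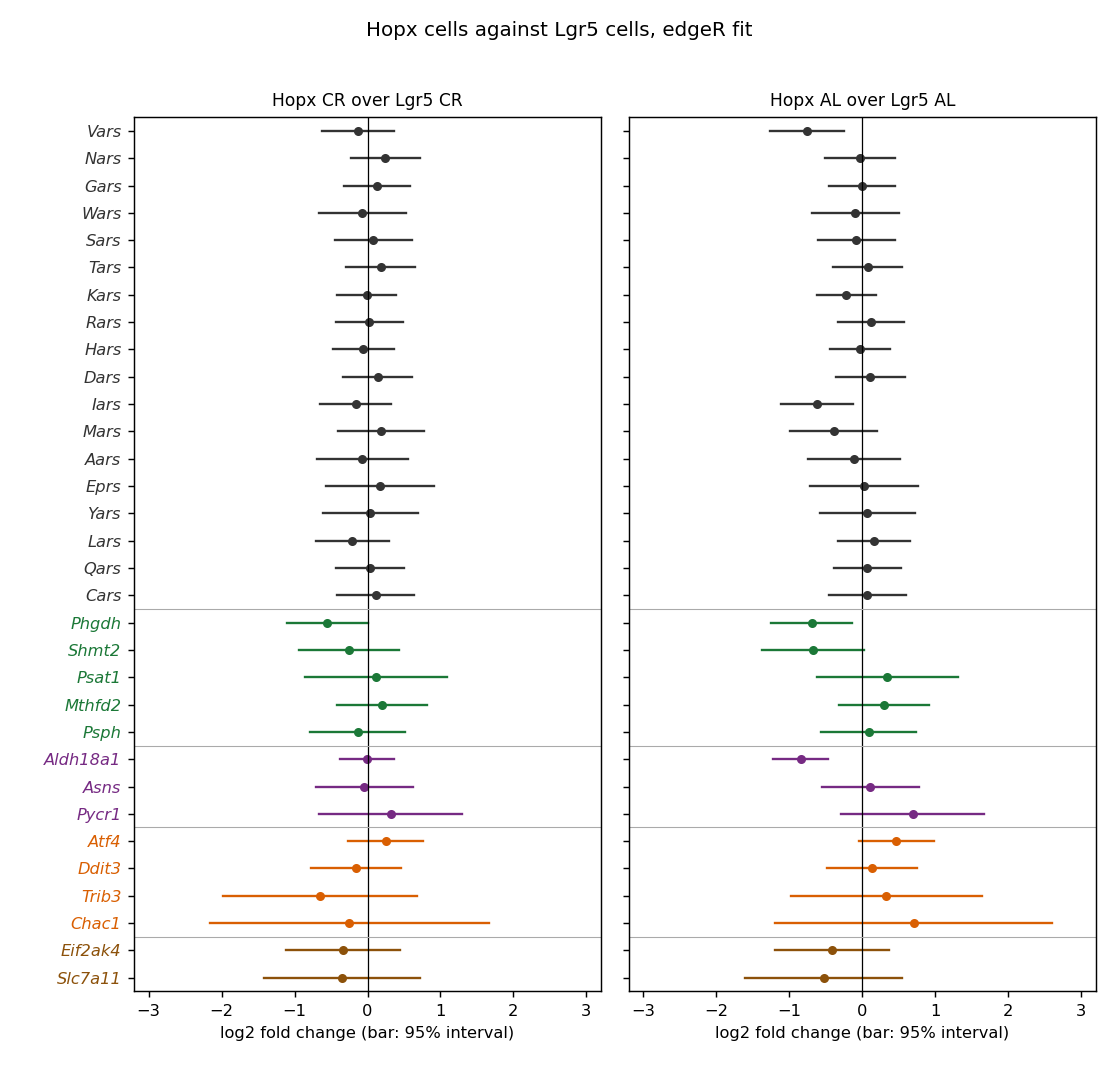
Population comparison of the 32 members, Hopx CR over Lgr5 CR at left and Hopx AL over Lgr5 AL at right, as log2 fold changes with 95% intervals from the edgeR fit. At right Aldh18a1, Vars, Iars and Phgdh lie below 0 with intervals that exclude it, and at left Aldh18a1 lies at -0.01.

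This comparison depended on the scaling of the libraries. On unscaled TPM the median of all tested genes was shifted by -0.49 log2 units in Hopx AL against Lgr5 AL, and 13 of 32 members, 10 of them synthetases, passed as lower in Hopx cells, beside 21.2% of all genes called, 20.5% as lower. Averaged over both diets 11 of 32 passed, all lower, beside 21.2% of genes, and under CR 0 passed, beside 0.0316%. Relative to the shift of all genes the synthetase median was -0.31. With the TPM columns also TMM-scaled, an alternative chosen after these values were seen, 1 member, Aldh18a1, passed (-0.89, adjusted p = 0.0308), beside 1.06% of genes, and the synthetase median was -0.07. It was also the member that passed averaged over both diets (-0.46, adjusted p = 0.0457), beside 1.89% of genes, and under CR 0 passed, beside 0.0568%. Over all alternatives the adjusted p of Aldh18a1 averaged over both diets ran from 0.000797 to 0.251. In the same comparison the Paneth markers summed to 82100 to 203000 CPM in Hopx AL and 15900 to 64100 in Lgr5 AL, and the 6 active stem cell markers to 2480 to 3230 CPM in Hopx AL and 3440 to 7760 in Lgr5 AL, and their part in the result was not tested. Population and isolation cannot be told apart, since no isolation held both lines.

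The rest of the pathway was read from gene lists. Of 34 further ATF4 targets, 31 were tested and 0 passed the edgeR threshold for either diet comparison, with medians of -0.02 in Hopx cells and 0.07 in Lgr5 cells. In Lgr5 cells 4 of 31 had an unadjusted p under 0.05, beside 9.78% of all genes, and these 4 were all higher in CR, as were 5.57% of all genes: the ER oxidase gene Ero1l (0.64, SE 0.17, adjusted p = 0.261), the lipoprotein receptor Vldlr (1.19, SE 0.46), the aspartate aminotransferase Got1 (0.66, SE 0.27) and the autophagy receptor Sqstm1 (0.45, SE 0.19). In Hopx cells 2 of 31 did, a smaller share than the 8.52% of all genes: the mitochondrial protease Lonp1 (0.61, SE 0.20) and the stress-induced chromatin protein Nupr1 (-1.64, SE 0.55), both with adjusted p = 0.504.

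The 17 mitochondrial synthetases had a median of 0.08 in Hopx cells and -0.22 in Lgr5 cells. In Lgr5 cells 14 of the 17 had negative values, against 48.2% of all genes, and 4 of them had an unadjusted p under 0.05, against 4.21% of all genes that were lower at this p: Cars2 (-0.89, SE 0.25), Yars2 (-0.62, SE 0.19), Tars2 (-0.71, SE 0.22) and Aars2 (-0.57, SE 0.19), with adjusted p of 0.273 to 0.362 by edgeR. Of the 9 synthetase partners 1 had an unadjusted p under 0.05 in Lgr5 cells, beside 9.78% of all genes, and 0 in Hopx cells, beside 8.52%. This was Farsb, a subunit of the phenylalanine synthetase, which was lower in Lgr5 CR than in Lgr5 AL (-0.55, SE 0.19, adjusted p = 0.387). The 26 tested of 27 other serine, glycine, folate and proline enzymes had medians of 0.06 in Hopx cells and 0.09 in Lgr5 cells. In Lgr5 cells 3 of 26 had an unadjusted p under 0.05, beside 9.78% of all genes: the serine racemase Srr (0.63, SE 0.23, adjusted p = 0.411), the trifunctional folate enzyme Mthfd1 (-0.59, SE 0.24, adjusted p = 0.464) and the proline synthesis enzyme Pycrl (-0.42, SE 0.17, adjusted p = 0.48). In Hopx cells 2 of 26 did, beside 8.52% of all genes: the folate enzyme Aldh1l1 (0.86, SE 0.31, adjusted p = 0.526) and Amt, of the glycine cleavage system (-1.41, SE 0.59, adjusted p = 0.563).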

How the data were processed

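The authors deposited estimated counts per gene symbol and TPM for the same rows and 10 libraries. Per the labels' protocols, cDNA was made with SMART-Seq v4 and libraries with Nextera XT on an Illumina NextSeq. Neither kit marks the strand or adds molecular identifiers, which leaves 8 members whose exons overlap a gene on the opposite strand (GENCODE M21) open to sharing reads with it. The submitters' processing notes name kallisto, edgeR and the build GRCh38, a human build, while the symbols are mouse symbols, so no coordinates of the files are given. Of the rows, 93.8% have a symbol in GENCODE M21, and 27 carry spreadsheet dates.

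The deposited estimated counts were rounded, filtered with filterByExpr (minimum count 10), TMM-scaled (trimmed mean of M-values) and fitted with edgeR 4.0.16 (quasi-likelihood, R 4.3.3) over all 10 libraries with 4 group means. The 7 contrasts were each adjusted by Benjamini-Hochberg over 15839 genes, with two-sided tests. The standard error is the log2 fold change divided by the root of the F statistic. The biological coefficient of variation was 0.389. Isolation differences are log2 CPM with a prior count of 2. Alternatives used DESeq2 1.42.0 and limma 3.58.1 on log2(TPM + 1) and log2(TPM + 0.1). Depth was 20251504 to 87215729 estimated counts per library, and precision is limited by the number of mice.

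The labels give a shared isolation number to 1 CR and 1 AL mouse, which pairs them. Deviations from the group means correlated at 0.0195 to 0.165 over all genes within an isolation, and at -0.369 to 0.181 over the 32 members. The edgeR fit called 0 members in the diet contrasts, both without and with the isolation as a block.

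Named with full values are, in each contrast, the 6 members with the smallest p and always Atf4, Asns and Eif2ak4, and up to 4 genes of each pathway list. Ddit3, Slc7a11 and Pycr1 were added after their values were seen. The members and lists were chosen with earlier results of these data known, so no p over a list is given. RefSeq promoters on chromosome 18 were not used.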

Additional observations from a re-analysis of the deposited data

Results flagged for a closer look

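Aldh18a1 and Vars were set apart because the CR mouse was higher in both Hopx isolations and lower in all 3 Lgr5 isolations. For Aldh18a1 the diet effect in Hopx cells minus that in Lgr5 cells was 0.833 log2 units (edgeR adjusted p = 1). For Vars it was 0.626 (edgeR adjusted p = 1). With the isolation as a block the values were 0.83 (adjusted p = 0.946) for Aldh18a1 and 0.63 (adjusted p = 0.946) for Vars. Of all tested genes, 5.26% had opposite directions of this kind.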

How the results depend on the processing

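The counts of genes called by edgeR were 3 for Lgr5 CR against Lgr5 AL, 2 for Hopx CR against Hopx AL, 1 for the difference of the diet effects, 1 for CR against AL averaged, 3 for Hopx AL against Lgr5 AL, 3 for Hopx CR against Lgr5 CR and 211 for Hopx against Lgr5 averaged. In this order DESeq2 called 365, 140, 35, 641, 1157, 160 and 1400, and no filter on low counts gave 83, 7, 3, 117, 194, 24 and 465. The limma test gave 19, 4, 3, 50, 3359, 5 and 3350 on log2(TPM + 1), and 23, 4, 2, 62, 3617, 12 and 3658 on log2(TPM + 0.1). On log2(TPM + 1) the 3359 calls of Hopx AL against Lgr5 AL were 118 higher and 3241 lower. TMM scaling of TPM, chosen after seeing the data, gave 3 for the difference of the diet effects, 23 for the averaged diet, 168 for Hopx AL against Lgr5 AL and 9 for Hopx CR against Lgr5 CR. DESeq2 size factors in the edgeR fit gave 1 for the Lgr5 diet. The causes were not tested.

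With the isolation as a replicate block, the counts were 0 for the Lgr5 diet, 0 for the Hopx diet, 0 for the difference of the diet effects and 2 for the averaged diet. Under this pairing Trib3 in Lgr5 cells was 1.91 (adjusted p = 0.248), and the smallest adjusted p of a member was 0.142. Hopx against Lgr5 cells could not be blocked, since each isolation held 1 line.

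Leaving out each library in turn gave 0 to 109 calls for the Lgr5 diet, 1 to 3 for the Hopx diet, 1 to 2 for the difference, 1 to 348 for the averaged diet, 0 to 110 for Hopx AL against Lgr5 AL, 1 to 7 for Hopx CR against Lgr5 CR and 22 to 293 for Hopx against Lgr5 averaged. The counts of 109, 348 and 110 came without Lgr5 AL replicate 1, and that of 22 without Hopx AL replicate 1.

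Medians moved on unscaled TPM (pseudocount 1, then 0.1), where the median of all genes also shifted. Those of the synthetases were -0.302 and -0.305 for the Lgr5 diet, 0.329 and 0.334 for the Hopx diet, 0.594 and 0.608 for the difference, -0.798 and -0.81 for Hopx AL against Lgr5 AL, -0.243 and -0.251 under CR, and -0.51 and -0.517 averaged. Those of the serine and one-carbon genes were 0.424 and 0.443 for the difference, -0.724 and -0.785 for Hopx AL against Lgr5 AL, and -0.556 and -0.603 averaged. Those of the asparagine and proline genes were 0.0642 and 0.0651 for the Hopx diet, 0.393 and 0.396 for the difference, -0.707 and -0.713 for Hopx AL against Lgr5 AL, and -0.51 and -0.515 averaged. Those of the stress genes were -0.291 and -0.314 for Hopx AL against Lgr5 AL, -0.429 and -0.541 averaged, and -0.701 under CR (0.1). Those of transport and sensing, at 0.1, were 0.476 for the difference, -1.08 for Hopx AL against Lgr5 AL and -0.839 averaged.

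Leaving out 1 library, medians of the synthetases ran from -0.166 to 0.199 for the Hopx diet, from -0.0958 to 0.368 for the difference and from -0.237 to 0.129 for Hopx AL against Lgr5 AL. Serine and one-carbon medians ran from -0.252 to 0.364 for the difference and from -0.537 to 0.358 for Hopx AL against Lgr5 AL. Asparagine and proline medians ran from -0.628 to 0.202 for the Hopx diet, from -0.513 to 0.347 for the difference and from -0.384 to 0.473 for Hopx AL against Lgr5 AL. Stress medians ran from -0.337 to 0.638 for the Hopx diet, from -0.978 to -0.12 for the difference and from -0.181 to 0.634 for the averaged diet. Transport and sensing medians ran from -0.263 to 0.321 for the Hopx diet, from -0.203 to 0.38 for the difference and from -0.671 to -0.0872 for Hopx CR against Lgr5 CR. These moves came from leaving out a Hopx library. Signs of medians changed in 59 of 350 such values and in 35 of 240 others, and signs of named members in 31 of 580 and 27 of 400. With 2 or 3 mice in a group, wide intervals limit the diet comparisons.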

Other observations

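The control of eIF2 upstream of Atf4 was looked at through 16 genes, of which 0 passed the edgeR threshold in either diet comparison. At an unadjusted p under 0.05 the count was 2 of 16 in Hopx cells, against 8.52% of all genes, and 3 of 16 in Lgr5 cells, against 9.78%. All of them were higher in CR, as were 5.41% of all genes in Hopx cells and 5.57% in Lgr5 cells. Eif2ak3, the gene of the ER stress kinase PERK, was at 39.4 and 41.8 CPM in Hopx CR and 34.5 and 25.2 in Hopx AL, and at 49, 45.6 and 51.3 CPM in Lgr5 CR and 35.1, 34 and 28.4 in Lgr5 AL. Every CR library lay above every AL library, in both populations together, as for 1.61% of tested genes, and the averaged log2 fold change was 0.51 (SE 0.13, adjusted p = 0.152 by edgeR). Ppp1r15b, a subunit of the phosphatase that reverses eIF2 phosphorylation, was at 198 and 193 CPM in Hopx CR and 152 and 113 in Hopx AL, and at 224, 184 and 226 CPM in Lgr5 CR and 179, 138 and 142 in Lgr5 AL. Its averaged log2 fold change was 0.51 (SE 0.14, adjusted p = 0.174). All 9 enterocyte markers also had positive averaged log2 fold changes, and their part in these differences was not tested.

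Between populations 4 of the 16 genes had an unadjusted p under 0.05 averaged over both diets, against 19.5% of all genes. Gcn1l1, whose product helps GCN2 sense uncharged tRNA, was at 132 and 144 CPM in Hopx CR and 96.8 and 105 in Hopx AL, and at 155, 152 and 202 CPM in Lgr5 CR and 159, 230 and 197 in Lgr5 AL. All Hopx libraries lay below all Lgr5 libraries, as for 1.93% of tested genes. The averaged log2 fold change of Hopx over Lgr5 cells was -0.63 (SE 0.15, adjusted p = 0.0677 by edgeR). Dnajc3, an inhibitor of the eIF2 kinase PERK, was higher in all Hopx libraries than in all Lgr5 libraries, as were 2.87% of tested genes. It was at 153 to 197 CPM in Hopx cells and 104 to 144 in Lgr5 cells (0.50, SE 0.12, adjusted p = 0.069). Pck2, the mitochondrial carboxykinase and an ATF4 target, had an averaged difference of -0.61 (SE 0.15, adjusted p = 0.0803).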
